A study of Homo sapiens with 14 samples.

Results

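PIK3CA, AKT1, AKT2, AKT1S1, MTOR, RPTOR, RICTOR and DDIT4, 8 genes of the AKT and mTOR pathway, were examined in 2 prostate cancer cell lines. They were taken by gene symbol, and all 8 were found in both expression tables, which hold 24199 features for DU145 and 44591 genes for LNCaP. The genes were chosen because of their measured values in these same libraries, above all the lower AKT1S1 level after PAX6 knockdown, so their values are a description: no p-value of a member is given, and where members past a threshold are counted, the count supports nothing. In DU145, a prostate cancer line, 3 libraries came from cells infected with a lentivirus carrying a non-target hairpin (shCON) and 3 from cells carrying a hairpin against the transcription factor PAX6 (shPAX6). In LNCaP, an androgen-responsive prostate cancer line, there was 1 library of parental cells and 1 of LNCaP-ENZ cells, which were treated for 30 days with the antiandrogen enzalutamide and kept in 20 µM of it. The labels give a single LNCaP library per arm where the methods speak of replicates of each line, and whether each one is 1 culture or a pool is not given. The labels do not say whether libraries of a group came from separate cultures, so the spread between them may be technical, nor which PAX6 hairpin each shPAX6 library carries.

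Class I PI3K makes a membrane lipid that recruits AKT kinases. The kinase mTOR works in a pair of complexes, mTORC1, built on the scaffold RAPTOR, which raises protein synthesis when growth factors and amino acids are present, and mTORC2, built on RICTOR, which phosphorylates AKT. AKT1S1 encodes PRAS40, a subunit that inhibits mTORC1 and is itself phosphorylated by AKT. In prostate cancer the pathway is known for frequent activation.

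Expression in DU145 was read as FPKM, a value per kilobase of transcript and library size (the table itself names no unit), whose sum per library was 470857 to 485479 in shCON and 448901 to 570790 in shPAX6. The depth of these libraries is unknown. The gene counts of the LNCaP libraries summed to 20468001 (parental) and 17945722 (LNCaP-ENZ). KRT8, an epithelial keratin, was at 635 to 993 FPKM in DU145, where the prostate markers FOLH1 and TMPRSS2 were listed at 0. In LNCaP, FOLH1 was at 153 TPM (a length-scaled share of all transcripts) in parental and 158 TPM in LNCaP-ENZ cells. The leukocyte markers PTPRC and CD3E were listed at 0 in all 6 DU145 libraries, whereas in LNCaP PTPRC had 23 parental and 28 LNCaP-ENZ counts and CD3E had 15 and 19. PAX6, the targeted gene, was at 0.839, 1.23 and 1.57 FPKM in the shCON libraries and at 0.0153, 0.274 and 0.0778 FPKM in the shPAX6 libraries. The shPAX6 libraries were all lower, with a log2 fold change of -2.69 (SE 0.49), and the adjusted p of 0.054 from limma missed the threshold of 0.05. In LNCaP, PAX6 had 11 parental and 4 LNCaP-ENZ counts, too few to separate the libraries (log2 ratio -0.98, 95% interval -3.38 to 0.49). Each library is RNA of bulk cells, so fewer cells of a kind and less RNA per cell cannot be told apart. The epithelial adhesion gene CDH1 was lower in shPAX6 (6.14 against 1.26 FPKM, adjusted p = 0.033 in limma), and the endothelial gene VWF had 345 parental and 27 LNCaP-ENZ counts while CDH5, another endothelial marker, had 0; their part in the results was not tested.

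On GRCh37, the build named in the study's methods, AKT1S1 lies on the minus strand at chr19:50372290-50381716. The annotation places TBC1D17 over 794 bases of it on the other strand, so reads there could be assigned to more than 1 gene. AKT2 lies on the same chromosome at chr19:40736224-40791443 and AKT1 at chr14:105235686-105262088, both on the minus strand. MTOR is at chr1:11166592-11322613 on the minus strand and overlaps ANGPTL7, which was listed at 0 in every DU145 library. RPTOR is at chr17:78518619-78940171 on the plus strand, RICTOR at chr5:38938022-39074504 on the minus strand, PIK3CA at chr3:178865902-178957881 on the plus strand and DDIT4 at chr10:74033678-74035794 on the plus strand. RICTOR shares 7677 bases with OSMR and PIK3CA shares 3403 bases with KCNMB3, in each case on opposite strands. In DU145, OSMR was at 63.8, 53.1 and 68.9 FPKM in shCON and 23.9, 62.8 and 37.6 FPKM in shPAX6, far above RICTOR. KCNMB3 was at 1.04, 0.790 and 0.797 FPKM in shCON and 1.08, 1.72 and 1.05 FPKM in shPAX6. In LNCaP, OSMR had 25 parental and 41 LNCaP-ENZ counts. Whether reads of these genes entered the RICTOR or PIK3CA values was not tested. The longest transcripts of PIK3CA and RICTOR have a GC content of 35.7% and 36.5%, whereas those of the other 6 genes lie between 52.0% and 62.1%.

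The promoter windows of RICTOR and PIK3CA, the pair of members that moved furthest in LNCaP, are given because their letters contrast with their GC-poor transcripts. The windows run from 250 bases before to 50 bases after a RefSeq start site on GRCh38.p14, 5′ to 3′ along the gene, and 7 of the 8 members, all but AKT1S1, had such a window. Capitals mark GGGCGG or its reverse complement CCGCCC, the core of a GC box; overlapping matches are merged in one run of capitals. RICTOR spans chr5:39074350-39074649 on the minus strand and PIK3CA chr3:179148107-179148406 on the plus strand.
RICTOR: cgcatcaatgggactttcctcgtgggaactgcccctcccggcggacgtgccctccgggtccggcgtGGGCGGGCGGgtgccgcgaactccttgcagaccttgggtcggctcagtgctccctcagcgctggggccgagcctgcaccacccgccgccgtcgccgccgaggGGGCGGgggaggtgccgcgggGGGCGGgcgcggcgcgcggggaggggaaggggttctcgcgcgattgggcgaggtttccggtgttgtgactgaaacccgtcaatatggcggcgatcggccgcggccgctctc
PIK3CA: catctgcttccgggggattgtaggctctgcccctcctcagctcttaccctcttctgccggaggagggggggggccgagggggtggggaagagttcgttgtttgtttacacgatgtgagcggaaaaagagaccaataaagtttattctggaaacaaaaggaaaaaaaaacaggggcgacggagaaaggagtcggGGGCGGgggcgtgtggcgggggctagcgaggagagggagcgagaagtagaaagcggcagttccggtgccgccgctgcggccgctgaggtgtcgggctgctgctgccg
The RICTOR window was 74.0% GC and held 4 forward matches, and the PIK3CA window was 60.7% GC with 1 forward match, beside a median of 58.7% GC over all 35116 windows. The motif was present on either strand in 45.0% of all windows, and a match is a description of the letters alone.

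In DU145, AKT1S1 was the member with the largest difference between shPAX6 and shCON cells. Its values were 40.9, 46.2 and 46.9 FPKM in shCON and 14.9, 11.3 and 12.6 FPKM in shPAX6. Every shPAX6 library lay far below every shCON library, and the mean was 44.7 ± 3.31 against 12.9 ± 1.79 FPKM (SD, n = 3), the latter 28.9% of the shCON level. On the log2(FPKM + 0.1) scale the fold change was -1.79 (SE 0.15), rank 75 among the falls of 13574 tested features. AKT1S1 was the 1 member of 8 past an adjusted p of 0.05 in limma, beside 1.2% of all tested features, and since this contrast was used in choosing the genes nothing is read from that count. Over 16 other settings, which include leaving out each library, its log2 fold change ran from -1.89 to -1.45. The count of members called was 0 without any 1 of the shCON libraries or without shPAX6 library 3, settings in which between 0 and 10 features of the whole table passed, and 2 without shPAX6 library 2, when RPTOR was the other. TBC1D17 was at 18.5, 20.1 and 19.7 FPKM in shCON and 24.6, 13.3 and 19.4 FPKM in shPAX6 (adjusted p = 0.92 in limma).

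**Figure D1:**
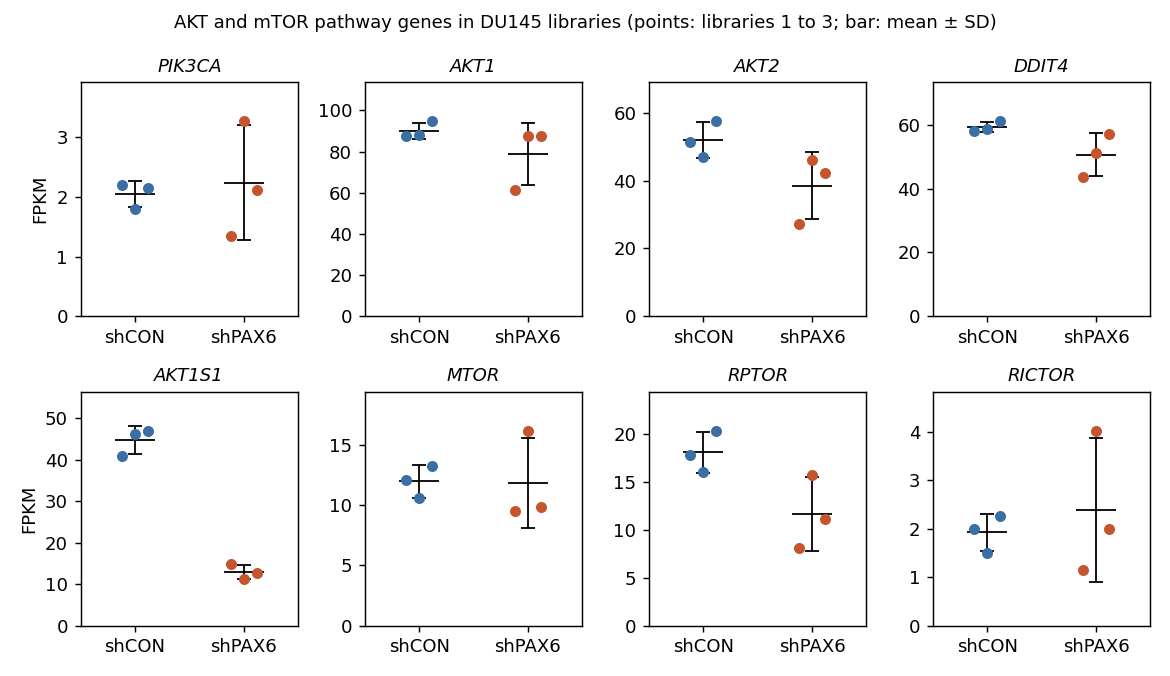
FPKM of the 8 genes in DU145, 1 panel per gene with its own linear axis from 0; points are the libraries 1 to 3 of shCON (blue) and shPAX6 (red) and bars the mean ± SD. AKT1S1 is at 40.9 to 46.9 in shCON and 11.3 to 14.9 in shPAX6, while PIK3CA, AKT1, MTOR and RICTOR overlap between the groups.

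The other members differed less, and for 4 of the 8 the groups did not overlap, namely AKT1S1, AKT2, RPTOR and DDIT4. Over all tested features 26.7% had groups that did not overlap. PIK3CA, the catalytic subunit p110-alpha of PI3K, was at 2.20, 1.80 and 2.14 FPKM in shCON and 1.34, 3.27 and 2.12 FPKM in shPAX6. The shPAX6 libraries lay on both sides of shCON, and the log2 fold change was 0.05 (SE 0.33). AKT1, the most abundant AKT kinase gene here, was at 87.4, 88.2 and 94.7 FPKM in shCON and 61.4, 87.6 and 87.4 FPKM in shPAX6. Only shPAX6 library 1 stood apart, and the fold change was -0.21 (SE 0.17), beside a median of -0.12 over all features. AKT2, its paralog known for glucose uptake downstream of insulin, was at 51.4, 47.0 and 57.5 FPKM in shCON and 27.4, 46.1 and 42.1 FPKM in shPAX6. All shPAX6 values lay below the shCON values, library 2 only just, with a log2 fold change of -0.46 (SE 0.21).

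Among the mTOR complex members, MTOR, the kinase of both complexes, was at 12.1, 10.5 and 13.2 FPKM in shCON and 9.51, 16.1 and 9.80 FPKM in shPAX6. shPAX6 library 2 was the highest of all 6 and the other shPAX6 libraries were the lowest. RPTOR, the mTORC1 scaffold, was at 17.9, 16.1 and 20.4 FPKM in shCON and 8.12, 15.7 and 11.1 FPKM in shPAX6. Its shPAX6 values were all lower, with a log2 fold change of -0.67 (SE 0.25), the second largest difference among the 8. RICTOR, the mTORC2 scaffold, was at 1.99, 1.51 and 2.27 FPKM in shCON and 1.15, 4.02 and 1.98 FPKM in shPAX6. The groups overlapped, with shPAX6 library 2 highest and library 1 lowest, as for PIK3CA. DDIT4 encodes REDD1, which dampens mTORC1 under hypoxia and other stress, and was at 58.1, 58.6 and 61.1 FPKM in shCON and 43.6, 51.1 and 57.2 FPKM in shPAX6. All 3 shPAX6 libraries were lower, with a log2 fold change of -0.23 (SE 0.14).

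The DU145 libraries differed in how expression ran with transcript GC content. Across 12009 genes with a GC content, Spearman's rho of a library's deviation from the other 5 with GC was -0.04, 0.52 and 0.36 for shCON libraries 1 to 3 and 0.23, -0.61 and -0.28 for shPAX6 libraries 1 to 3, and the fold change itself had a rho of -0.36. After a loess correction for GC in each library the log2 fold change of AKT1S1 was -1.45, that of RPTOR -0.34, that of AKT2 -0.15, and AKT1 and DDIT4 changed sign to 0.15 and 0.08. MTOR moved from -0.05 to 0.16 and also changed sign under quantile normalization and median centring. RICTOR was at 0.10 and PIK3CA at -0.01 after this correction. Median centring raised the median of all features from -0.12 to 0.06 and left AKT1S1 at -1.61, RPTOR at -0.50 and AKT2 at -0.29.

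AKT1S1 was next set against MTOR, RPTOR and MLST8, the core partners of mTORC1, within each library, a measure in which the scaling of a library cancels. Expressed as a fold over the geometric mean of the 3 partners (log2 of FPKM + 0.1), AKT1S1 was at 2.11, 2.50 and 2.24 in shCON and at 1.07, 0.624 and 0.859 in shPAX6. PRAS40 mRNA thus exceeded the mean of its partners in all shCON libraries and was near or below it in shPAX6. The log2 ratio changed by -1.45, from 1.19 ± 0.12 to -0.27 ± 0.39 (SD, n = 3), and ran from -1.64 to -1.25 over 10 alternatives, which include adding DEPTOR to the partners, the GC correction and each library left out. In LNCaP the same fold, from TPM, was 1.09 in parental and 1.16 in LNCaP-ENZ cells, so both LNCaP libraries were nearest to shPAX6 library 1, although FPKM and TPM tables were made separately. MLST8, the partner not among the 8 genes, was at 33.5, 37.0 and 33.8 FPKM in shCON and 34.2, 23.7 and 28.8 FPKM in shPAX6 (adjusted p = 0.42 in limma), and its log2 fold change of -0.28 turned to 0.11 with the GC correction.

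Within libraries, AKT1 exceeded AKT2 by 1.70-, 1.87- and 1.65-fold in shCON and by 2.24-, 1.90- and 2.07-fold in shPAX6. The groups did not overlap, by a small margin, and the LNCaP libraries were higher still at 2.51- and 2.78-fold. RPTOR exceeded RICTOR by 8.60-, 10.1- and 8.65-fold in shCON and by 6.58-, 3.85- and 5.40-fold in shPAX6. In LNCaP this excess was 6.81-fold in parental and 14.2-fold in LNCaP-ENZ cells, the opposite direction to DU145. RPTOR and RICTOR differ in GC content (60.0% against 36.5%), and the GC relations of both tables had opposite signs; their part in this ratio was not tested.

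**Figure D2:**
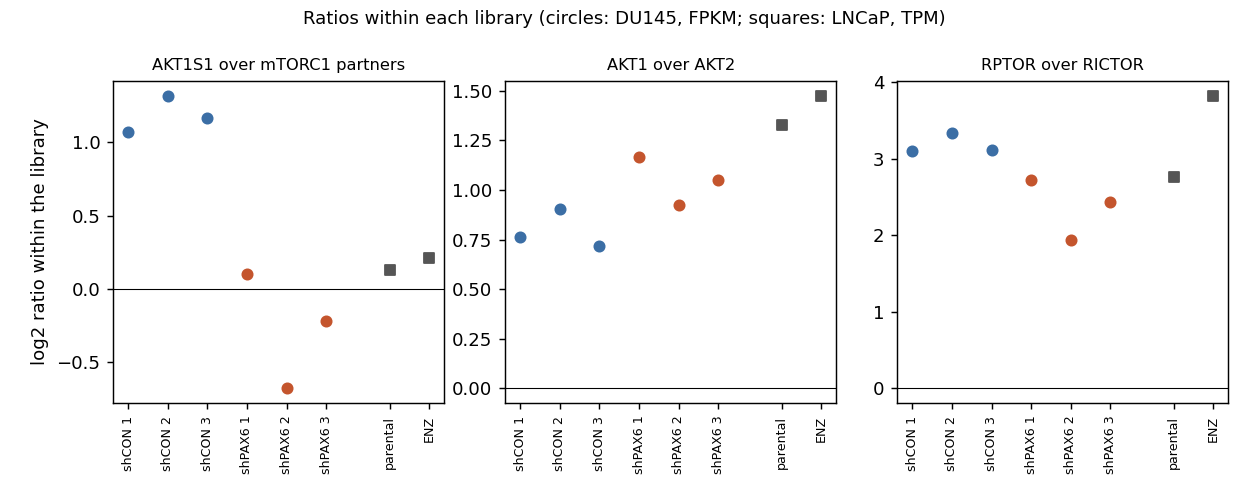
Log2 ratios within each library for AKT1S1 over the mean of MTOR, RPTOR and MLST8, AKT1 over AKT2, and RPTOR over RICTOR; circles are DU145 libraries (FPKM; shCON blue, shPAX6 red), squares LNCaP libraries (TPM), and the line marks a ratio of 1. AKT1S1 over its partners is between 1.07 and 1.32 in shCON and between -0.68 and 0.10 in shPAX6.

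By level in shCON cells, the order was AKT1 (90.1 FPKM), DDIT4 (59.3 FPKM), AKT2 (52.0 FPKM), AKT1S1 (44.7 FPKM), RPTOR (18.1 FPKM), MTOR (12.0 FPKM), PIK3CA (2.05 FPKM) and RICTOR (1.92 FPKM). PIK3CA and RICTOR were not separated, and AKT2 and AKT1S1 were next to each other, with a lowest AKT2 value of 47.0 and a highest AKT1S1 value of 46.9. In shPAX6 cells AKT1S1 at 12.9 FPKM had the level of MTOR (11.8 FPKM) and RPTOR (11.7 FPKM), and the 3 ranges overlapped. In parental LNCaP, ordered by TPM, DDIT4 (207 TPM) came before AKT1 (66.7 TPM), AKT1S1 (26.9 TPM), AKT2 (26.6 TPM), MTOR (16.9 TPM), RPTOR (12.4 TPM), RICTOR (1.73 TPM) and PIK3CA (1.05 TPM). PIK3CA and RICTOR were thus the least abundant members in both lines.

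The genes whose log2 values ran most like those of AKT1S1 over the 6 DU145 libraries were MUC1, an epithelial mucin (Pearson's r 0.9998), WISP2, a secreted protein of the CCN family (r 0.9994), EFHD2, a calcium-binding protein (r 0.998), PALM, a membrane-associated protein (r 0.997) and SLC37A4, the glucose-6-phosphate transporter (r 0.997). MUC1 was at 23.4, 28.1 and 28.5 FPKM in shCON and 3.67, 2.19 and 2.54 FPKM in shPAX6. It shares with AKT1S1 a low shCON library 1 and a high shPAX6 library 1, and each r was picked from all features and rests on 6 libraries that form 2 groups. PAX6 itself had an r of 0.89 with AKT1S1, MLST8 0.75, RPTOR 0.68, DDIT4 0.65, AKT2 0.60, AKT1 0.43, MTOR 0.00, PIK3CA -0.19 and RICTOR -0.25.

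Beyond the 8, 91 further genes of the pathway were listed by role, and 84 of them had a mean of at least 0.5 FPKM and were tested in DU145. Only RPS6KB2 passed the adjustment, with none higher, in a table where 163 of 13574 features passed (24 higher and 139 lower). At an unadjusted p under 0.05 there were 11 (1 higher and 10 lower, 13.1% of the 84), beside 18.3% of all features, and their median log2 fold change was -0.15, beside -0.12 over all features. The share of higher calls in the whole table rose with other scalings, to 74 of 236 with quantile normalization, 28 of 100 with median centring and 100 of 222 with the GC correction. RPS6KB2 encodes S6K2, a kinase that mTORC1 activates, and was at 53.6, 56.1 and 60.0 FPKM in shCON and 27.0, 17.3 and 19.2 FPKM in shPAX6. All shPAX6 libraries were lower, with a mean of 56.5 ± 3.24 against 21.2 ± 5.17 FPKM (SD, n = 3). On the log2 scale the difference was -1.44 (SE 0.18), with an adjusted p of 0.023 in limma. The call was lost with median centring (adjusted p = 0.096 in limma) and without any 1 of the shCON libraries or shPAX6 library 3 (adjusted p = 0.15 to 0.22 in limma). Its paralog RPS6KB1, encoding S6K1, was at 5.25, 3.92 and 5.18 FPKM in shCON and 3.55, 6.89 and 5.02 FPKM in shPAX6, and its groups overlapped (adjusted p = 0.93 in limma).

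Among the other mTORC1 outputs, 4 of 12 had an unadjusted p under 0.05, all lower, RPS6KB2 included. TFEB, a transcription factor of lysosomal genes that mTORC1 holds in the cytoplasm, was at 3.04, 3.03 and 3.57 FPKM in shCON and 2.08, 1.32 and 1.45 FPKM in shPAX6. Its groups were apart, with a log2 fold change of -0.97 (SE 0.24), but the adjusted p of 0.098 in limma missed the threshold, and it was 0.017 without shPAX6 library 1. Of the class I PI3K genes 5 were tested in limma and 0 passed (1 at an unadjusted p under 0.05). PIK3CD, the catalytic subunit p110-delta, had a mean of 3.21 ± 0.38 FPKM in shCON and 1.73 ± 0.49 FPKM in shPAX6 (SD, n = 3; log2 fold change -0.89, adjusted p = 0.15 in limma). PIK3R3, a regulatory subunit, had means of 1.33 and 1.72 FPKM (0.32, adjusted p = 0.55 in limma). PIK3R2, another regulatory subunit, named here after its values were seen, had the largest fitted difference of the list at -1.85 but ranged from 0.666 to 7.74 FPKM within shCON, and its groups overlapped (adjusted p = 0.32 in limma).

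Of the tested AKT activation and lipid phosphatase genes (5), TSC and RHEB genes (5), energy and stress inputs (9), amino acid inputs (28), other mTOR complex subunits (6), AKT substrates and SGK kinases (11) and insulin receptor substrates (2), 0 passed the adjustment in limma, and 6 had an unadjusted p under 0.05 (1 higher and 5 lower). SESN3, a sestrin that restrains mTORC1 when amino acids are low, was at 1.14, 0.977 and 1.23 FPKM in shCON and 1.70, 4.04 and 2.51 FPKM in shPAX6. All shPAX6 libraries were higher, by 1.15 on the log2 scale (SE 0.33), with an adjusted p of 0.13 in limma. With quantile normalization, with the GC correction or without shPAX6 library 1 SESN3 did pass, at adjusted p = 0.038, 0.035 and 0.021 in limma. LAMTOR3, a Ragulator subunit that anchors mTORC1 signalling at the lysosome, had means of 2.98 and 3.51 FPKM in shCON and shPAX6 (adjusted p = 0.57 in limma). FOXO4, a transcription factor that AKT keeps out of the nucleus, had means of 2.66 and 1.58 FPKM (adjusted p = 0.29 in limma).

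DEPTOR, an mTOR inhibitor, was at 1.10, 0.815 and 1.38 FPKM in shCON and 0.636, 0.629 and 0.761 FPKM in shPAX6, apart but with an adjusted p of 0.31 in limma. MAPKAP1, which encodes the mTORC2 subunit SIN1, had means of 76.8 and 83.6 FPKM (adjusted p = 0.71 in limma), and PRR5, encoding the mTORC2 subunit PROTOR1, had means of 10.6 and 10.7 FPKM (adjusted p = 0.99 in limma). PRR5L, its paralog, had a mean below the filter in DU145. TRIB3, a pseudokinase that binds AKT, had means of 45.6 and 45.3 FPKM (adjusted p = 0.98 in limma).

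**Figure D3:**
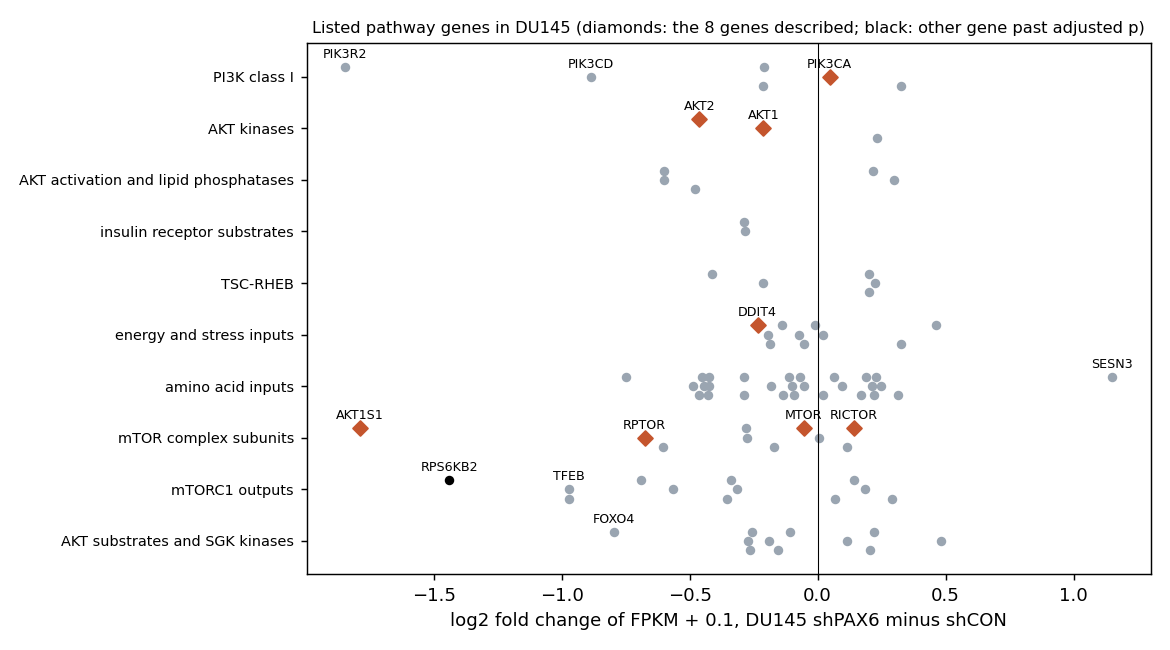
Log2 fold change (shPAX6 minus shCON, FPKM + 0.1) of each listed pathway gene with a mean of at least 0.5 FPKM in DU145, by role; diamonds are the 8 genes and the black point is RPS6KB2, the further listed gene past the adjusted p of 0.05. AKT1S1 at -1.79 and RPS6KB2 at -1.44 lie left of most points, PIK3R2 at -1.85 has overlapping groups, and SESN3 at 1.15 is the furthest to the right.

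In LNCaP, RICTOR and PIK3CA were the members past 1.5-fold, both lower in LNCaP-ENZ cells, and AKT1S1 was not. That is 2 of 8, or 25%, beside 30.6% of the 14767 genes with a mean of at least 1 CPM (counts scaled to the library total), 24.1% being lower. With 1 library per arm nothing here has a replicate check, and the 95% intervals, exact Clopper-Pearson intervals from the split of a gene's counts, cover counting error only. Over all kept genes 958 were higher and 3554 lower past 1.5-fold, so 78.8% of these were lower, and 62.1% with edgeR's TMM factors. The median log2 ratio was -0.15, near 0 with TMM (-0.01).

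AKT1S1 had 1587 parental and 1476 LNCaP-ENZ counts, or 77.5 and 82.2 CPM (log2 ratio 0.09, 95% interval -0.02 to 0.19). RPTOR, at 1661 and 1560 counts, gave 0.10 on the same scale (-0.0014 to 0.20). MTOR, at 2883 and 2328 counts, gave -0.12 (-0.20 to -0.04). AKT1, at 4252 and 4092 counts, gave 0.13 (0.07 to 0.20), and AKT2, at 2762 and 2394 counts, gave -0.02 (-0.10 to 0.06). These 5 genes therefore lay within 1.10-fold of the parental level. The sign of such small values followed the scaling: with TMM AKT2 was at 0.13 and MTOR at 0.03, and with a GC correction of the ratio AKT1S1 was at -0.10, RPTOR at -0.09 and AKT1 at -0.03. DDIT4, the most abundant member, stood at 7086 and 5435 counts, for a ratio of -0.19 on the log2 scale (-0.24 to -0.14) that was -0.05 with TMM.

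RICTOR had 326 parental and 138 LNCaP-ENZ counts (log2 ratio -1.04, 95% interval -1.35 to -0.76), so LNCaP-ENZ was at 48.6% of the parental CPM. PIK3CA had 187 and 86 counts (log2 ratio -0.92, interval -1.32 to -0.55), at 53.0% of the parental level. Both are the GC-poor transcripts of the 8. The log2 ratio ran with GC over 12605 genes (Spearman's rho 0.37), and its median was -0.69 over the 1026 genes with a GC content of 34 to 38% and 0.02 over the 1461 genes with 58 to 62%. With a loess correction of the ratio for GC, chosen after seeing the data, RICTOR was at -0.57 and PIK3CA at -0.41, and 0 of the 8 members were past 1.5-fold. Libraries and conditions cannot be told apart in this design, and the origin of the GC trend was not tested.

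**Figure D4:**
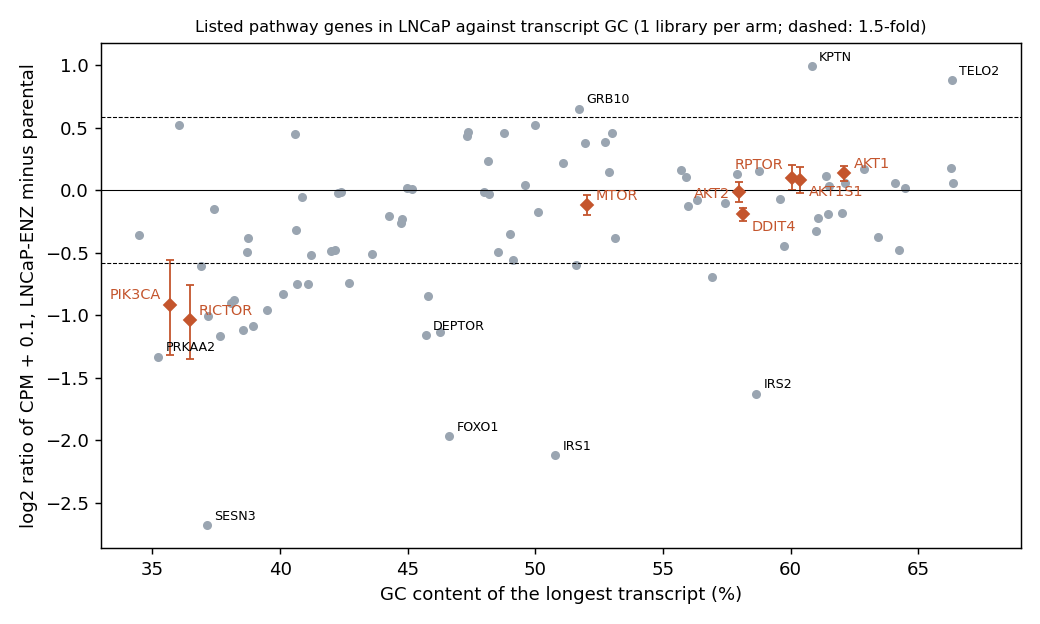
Log2 ratio of CPM + 0.1 (LNCaP-ENZ minus parental) of the listed pathway genes against the GC content of their longest transcript; red diamonds are the 8 genes with 95% counting intervals, grey points other listed genes, and dashed lines mark 1.5-fold. RICTOR and PIK3CA lie at about 36% GC with log2 ratios of -1.04 and -0.92, and the other 6 members lie between 52.0% and 62.1% GC near 0.

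Of the 91 further pathway genes, 86 were kept in LNCaP and 25 were past 1.5-fold (3 higher and 22 lower, 29.1% beside the 30.6% of all kept genes). Their median log2 ratio was -0.18, beside -0.15 over all genes. With TMM the split was 9 higher and 19 lower. SESN3 had the lowest ratio of the list, with 14756 parental and 2018 LNCaP-ENZ counts (log2 ratio -2.68, 95% interval -2.75 to -2.61), and stood at -2.24 with the GC correction. In DU145 its values were higher in shPAX6, a difference that did not pass the test. IRS1 and IRS2, adaptors that link the insulin and IGF1 receptors to PI3K, had 101 and 19 counts (log2 ratio -2.12) and 198 and 55 counts (-1.63). FOXO1, a transcription factor restrained by AKT, had 429 and 95 counts (-1.97). PRKAA2, a catalytic subunit of the energy sensor AMPK, had 379 and 131 counts (-1.33, and -0.80 with the GC correction). On the higher side, KPTN, a subunit of the KICSTOR complex that tethers the GATOR1 inhibitor to lysosomes, had 77 and 136 counts (0.99), TELO2, a chaperone cofactor for mTOR assembly, 272 and 440 counts (0.88), and GRB10, an adaptor that mTORC1 phosphorylates, 8319 and 11452 counts (0.65). GRB10 was no longer past 1.5-fold with the GC correction (0.45) or from the deposited TPM (0.56), while KPTN (0.82 and 0.89) and TELO2 (0.78 and 0.78) were.

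By role, those past 1.5-fold were 3 of 5 class I PI3K genes, 3 of 6 AKT activation and lipid phosphatase genes, 7 of 13 AKT substrates and SGK kinases, 2 of 8 energy and stress inputs and 2 of 2 insulin receptor substrates, all of them lower. They were also 2 of 6 other mTOR complex subunits (1 higher and 1 lower), 2 of 29 amino acid inputs (1 higher and 1 lower), 3 of 12 mTORC1 outputs (1 higher and 2 lower) and 0 of 4 TSC and RHEB genes. These stand beside 30.6% of all kept genes, and no difference between roles was tested. The 3 PI3K genes, PIK3CB, PIK3R1 and PIK3R3, have GC contents of 40.1% to 45.8%, named here after their values were seen. DEPTOR had 324 and 126 counts (-1.16, interval -1.48 to -0.87). MLST8 was close to level at 2876 and 2550 counts (0.02), as were PRR5 with 211 and 193 counts (0.06) and TRIB3 with 1283 and 1149 counts (0.03), and MAPKAP1 had 1131 and 881 counts (-0.17). PRR5L had 9 and 2 counts, below the filter. RPS6KB2, which was lower in shPAX6 DU145 cells, had 1482 and 1420 counts in LNCaP (0.13, interval 0.02 to 0.23), and TFEB had 347 and 267 counts (-0.19, interval -0.42 to 0.05).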

How the data were processed

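RNA sequencing tables of 6 DU145 and 2 LNCaP libraries were analysed, and the 6 ATAC-seq samples were not used here. Per the study's methods, reads were aligned to GRCh37 with HISAT2 and quantified with StringTie; versions are not given in the sources used here. Labels and methods describe different library preparation and sequencing. The authors deposited whole-number counts and TPM per gene for LNCaP, and for DU145 values that name no unit and were treated as deposited FPKM, a library-size and length-scaled value, so no count test was run on them. Whether counting used strand is not given in the sources used here.

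The 8 members, the 91 other pathway genes and all lists were chosen with earlier results of these data known. DU145 was tested with limma 3.58.1 in R 4.3.3 (lmFit, eBayes with trend) after adding 0.1 FPKM and taking log2, over the 13574 features whose mean reached 0.5 FPKM, two-sided, Benjamini-Hochberg adjusted over all of them, at 0.05. FPKM carry no depth, so no floor was given. The pseudocount understates changes of low genes. LNCaP counts, whose totals set the precision, were scaled to CPM, compared as a log2 ratio with a pseudocount of 0.1 where the mean CPM reached 1, and read at 1.5-fold. TMM came from edgeR 4.0.16. Intervals and shares cover counting error only. CASTOR1 and CASTOR2 were matched by older symbols.

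GC content was that of the longest transcript in the annotation lifted to GRCh37, known for 88.5% of tested features, and corrections used loess (span 0.5, degree 2). Genes named were the members, PAX6, MLST8, DEPTOR, MAPKAP1, PRR5, PRR5L, TRIB3, listed genes that passed, the 4 largest differences each way with groups apart in DU145, the 5 largest each way past 1.5-fold in LNCaP, the 5 genes most like AKT1S1, and overlapping genes; RPS6KB1 and others said to be named after their values were seen, and RPS6KB2 and TFEB in LNCaP, were added; some genes under this rule are not reported here. Replicate numbers come from the labels, without a stated pairing. Promoter sequences are RefSeq's. Scripts were tested on simulated data.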

Additional observations from a re-analysis of the deposited data

How the results depend on the processing

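Depth is unknown in DU145 and limits single LNCaP genes only at low counts. In DU145, the within-library change of AKT1S1 against its partners kept its sign in 10 of 10 alternatives, and AKT1S1 and RPS6KB2 kept theirs in 16 of 16. The 1 further pathway gene past the adjusted p became 2 with quantile normalization or the GC correction (SESN3 joined RPS6KB2) and 0 with median centring. Without 1 library at a time the count ran from 0 to 3 for further genes and from 0 to 2 for members, from 0 with shCON libraries left out to the highest without shPAX6 library 1 or 2. Same-numbered DU145 samples deviated with correlations of -0.17, -0.37 and 0.05, so the numbers were not taken to pair the libraries. With the replicate block, 0 members and 0 further genes passed, and 0 and 0 with the block and GC correction together; over all features 163 calls became 0 (1568 at an unadjusted p under 0.05) and 7, and no shCON library correlated best with the shPAX6 library of its own number. Signs of small differences turned: TRIB3 to 0.016 with quantile normalization, 0.16 with median centring and 0.34 with the GC correction, with or without the block, MLST8 to 0.11 with the GC correction, with or without the block, and, with 1 library left out at a time, PRR5 ran from -0.14 to 0.14 and TRIB3 from -0.080 to 0.065. The whole table held between 0 and 924 calls when 1 library was left out, the highest counts, 924 and 899, without shPAX6 library 1 or 2, and between 100 and 236 under the other unblocked settings. In LNCaP, a 2-fold threshold left 1 member and 11 further genes, and the GC correction left 0 members. AKT1S1 against its partners changed by 0.09, and by 0.38 with DEPTOR, which was lower in LNCaP-ENZ cells, among the partners. Alternatives chosen after seeing the data were the GC correction of the LNCaP ratio and totals that leave out the 10 genes of highest count, which left 2 members and 23 further genes. The cause of these shifts was not tested.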
